A study of Mus musculus with 6 samples.

Results

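Transcripts of 10 histone genes were followed in embryonic stem (ES) cells of the mouse, of 2 genotypes, as the rows of 10 named symbols among the 24043 gene rows of the deposited table. They are the histone variant genes H2afx, H2afy, H2afz, H2afv, H3f3a and H3f3b, the linker histone genes H1f0, H1fx and Hist1h1c, and the core histone gene Hist1h2bc. All 10 symbols had a row. ES cells are pluripotent cells of the early embryo. All libraries came from cells kept in leukaemia inhibitory factor (LIF) together with PD184352, a MEK inhibitor, and CHIR99021, a GSK3 inhibitor. The material named is total RNA, and whether it was selected for poly(A) before sequencing is not given. There were 3 wild-type libraries and 3 labelled Q-KO, a genotype described as lacking the G1 cyclins altogether. The labels give no strain, clone, passage or way of deletion. They also do not say whether replicates were cultured apart, and a p-value here reflects nothing more than the spread among the samples, which may be technical. Values of single libraries are given in the order of replicates 1, 2 and 3.

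Most histone genes are transcribed in S phase, and their messenger RNAs end in a stem-loop in place of a poly(A) tail. Variant histones are mostly made throughout the cell cycle from ordinary polyadenylated messenger RNAs and replace the S-phase histones in nucleosomes outside DNA replication. H3.3 is deposited by the chaperones HIRA and DAXX-ATRX, H2A.Z by the SRCAP and EP400 complexes, and linker H1 histones bind the DNA that enters and leaves the nucleosome. G1 cyclins bring cells into S phase, in which most histone synthesis takes place.

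The stem-loop shows which of the 10 genes also carry the ending of an S-phase histone. It was searched as GGNN followed by CTTNTNAG and NNCC, on the transcript strand after the stop codon of GENCODE M21 transcripts (GRCm38), where 86 of 21877 protein-coding genes (0.393%) hold it. Of the 10 genes only H2afx and Hist1h1c matched, with any coding transcript counted. Of 59 replication-dependent histone genes 41 matched, with only the longest transcript searched. These 59 were taken by symbol (starting with Hist1h, Hist2h, Hist3h or Hist4h), without the members and the genes listed as other variants. The name of the class thus rests on symbols, not on a measured link to replication. Some of those transcripts, as for Hist1h2ak and Hist1h4k, end at the stop codon in the annotation and cannot match. The loops are shown with the 16 matched bases in capitals, beside that of the replication-dependent gene Hist1h3c.
H2afx: cacaaaGGCCCTTTTAAGGGCCaccacc
Hist1h1c: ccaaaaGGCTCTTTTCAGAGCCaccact
Hist1h3c: aaaaaaGGCTCTTTTAAGAGCCacctaa
In H2afx the loop begins 46 bases after the stop codon and the annotated transcript runs on for 822 bases beyond it. The values for Hist1h1c are 24 and 840 bases. A sequence AATAAA or ATTAAA, the usual poly(A) signal, lies near the end of both tails (base 788 and base 815 after the loop). Hist1h3c has 74 bases after its loop, the median over the 41 replication-dependent genes is 57, and 19 of them have over 100. No match in Hist1h2bc says only that these letters are not in its annotated transcripts.

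Promoters are shown for H3f3b, which differed between the groups, its partner H3f3a, the most abundant gene H2afz, and Hist1h1c. The windows run from 250 bases before to 50 after the start site (RefSeq, GRCm38.p6), and capitals mark every match, on either strand, to the CCAAT box, the TATA box (TATAAA), the GC box (GGGCGG) and the H1 box letters (AAACACA).
H3f3b (chr11:116024455-116024754, minus strand): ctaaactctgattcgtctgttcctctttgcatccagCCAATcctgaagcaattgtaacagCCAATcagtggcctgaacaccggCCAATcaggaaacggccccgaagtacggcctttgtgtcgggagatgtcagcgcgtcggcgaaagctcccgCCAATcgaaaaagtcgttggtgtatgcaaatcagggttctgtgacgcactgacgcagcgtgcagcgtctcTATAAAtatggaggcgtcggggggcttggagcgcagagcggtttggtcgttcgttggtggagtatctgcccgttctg
H3f3a (chr1:180813556-180813855, minus strand): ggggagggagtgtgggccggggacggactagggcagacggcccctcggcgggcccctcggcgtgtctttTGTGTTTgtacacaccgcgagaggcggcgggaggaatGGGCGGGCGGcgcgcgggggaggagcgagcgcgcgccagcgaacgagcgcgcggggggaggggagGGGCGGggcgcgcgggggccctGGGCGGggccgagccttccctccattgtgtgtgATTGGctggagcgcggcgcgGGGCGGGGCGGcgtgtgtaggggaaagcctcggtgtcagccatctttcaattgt
H2afz (chr3:137864237-137864536, plus strand): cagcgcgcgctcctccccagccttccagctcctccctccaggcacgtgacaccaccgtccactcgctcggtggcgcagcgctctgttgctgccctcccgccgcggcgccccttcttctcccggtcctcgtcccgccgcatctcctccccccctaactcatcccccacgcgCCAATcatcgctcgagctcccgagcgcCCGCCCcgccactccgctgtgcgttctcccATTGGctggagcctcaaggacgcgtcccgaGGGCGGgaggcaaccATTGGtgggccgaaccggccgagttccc
Hist1h1c (chr13:23738557-23738856, plus strand): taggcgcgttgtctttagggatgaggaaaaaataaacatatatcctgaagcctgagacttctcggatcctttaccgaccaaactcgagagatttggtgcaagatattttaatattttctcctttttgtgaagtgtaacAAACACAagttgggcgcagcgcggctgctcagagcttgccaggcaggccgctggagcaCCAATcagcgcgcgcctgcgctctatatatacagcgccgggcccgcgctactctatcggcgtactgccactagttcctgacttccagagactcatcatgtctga
The 2 H3.3 promoters had few letters in common among the motifs searched. That of H3f3b held 4 CCAAT matches and a TATAAA at base -27, and no GGGCGG. That of H3f3a held 1 CCAAT and 6 GGGCGG matches, some of which overlap. Of the 8 members with a promoter in the table, 5 held CCAAT (37.4% of the 32851 promoters searched), 6 GGGCGG (35.7%), 1 TATAAA (13.6%) and 2 AAACACA (7.2%). An E2F site, searched as TTTCCCGC or with the middle letters CG, GC or GG in place of CC, was in 0 of the 8 (2.3% of the promoters searched). A match is a description of letters only.

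Values are FPKM, fragments per unit of gene length and of library size, so that levels of different genes can be set side by side. The sum of FPKM per library ranged from 525134 to 641715, highest in Q-KO replicate 3. Fragment numbers are not given. From the steps between low values, the other 5 libraries were 1.1 to 1.22 times as deep as the first wild-type library. Of the 6 ES cell markers examined 0 passed the test, and Pou5f1, the gene of Oct4, was between 589 and 797 FPKM in every library. Zfp42, the gene of Rex1, named after its values were seen, read 76.6, 78.9 and 363 FPKM in the wild type against 177, 75.4 and 74.7 FPKM in Q-KO, so that wild-type replicate 3 and Q-KO replicate 1 stood apart. The summed level of 10 fibroblast markers ran from 3.796 to 5.14 FPKM in the wild type and from 2.11 to 8.43 FPKM in Q-KO, highest in Q-KO replicate 1. The collagen gene Col1a1 was at 1.86 FPKM there and at no more than 0.168 elsewhere. The sum of 10 genes of differentiated lineages was 2.62 to 4.67 FPKM over all libraries, and none of them reached a mean of 1 FPKM. Among the G1 cyclins Ccnd1, Ccnd3 and Ccne2 fell but were not absent. They averaged 30.1, 85.6 and 6.83 FPKM in the wild type and 8.89, 10.8 and 2.98 FPKM in Q-KO. Ccnd2 was under 1 FPKM, on average 0.179 in the wild type and 0.398 in Q-KO. Ccne1 read 55.9, 53.9 and 37.5 FPKM in the wild type against 65.3, 73.5 and 87.3 FPKM in Q-KO (limma adjusted p = 0.113). The genotype is described as lacking all of these cyclins, but FPKM per gene does not show whether the proteins are made. The way of deletion is not given, so directions are stated for the libraries as labelled. The 5 Y-linked genes examined were listed at 0 in wild-type replicates 1 and 2. They summed to 98.6 FPKM in wild-type replicate 3 and to 43.2 to 70.5 FPKM in Q-KO. The spread among the wild-type libraries thus includes a difference in Y-linked transcripts, which every Q-KO library had. Its share in the differences between the groups was not tested for single members beyond the fit with a Y-linked term.

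The 10 genes spanned a wide range of levels, in the same order in both groups. H2afz was the most abundant, on average 710 ± 51.8 FPKM in the wild type and 634 ± 62.1 FPKM in Q-KO (mean ± SD over n = 3 libraries, here and in all later means). H3f3a, H3f3b, H2afx, H2afy, H2afv, H1f0, H1fx and Hist1h2bc followed, and Hist1h1c was lowest, at 1.07 ± 0.291 and 1.99 ± 0.446 FPKM. Ranges of neighbours in this order overlapped, in both groups, for H2afx and H2afy and for H1f0 and H1fx. The other neighbours had separate ranges in both groups. H2A.Z and H3.3 transcripts were thus far above those of the 3 linker histone genes among the members. These summed to 30.8 ± 9.74 FPKM in the wild type and 42.6 ± 8.72 FPKM in Q-KO. The linker histone genes Hist1h1a, Hist1h1b, Hist1h1d and Hist1h1e, each averaging under 1 FPKM, are not in this sum. H2afx and Hist1h1c hold the stem-loop, so their levels are no measure of messenger RNA that lacks a tail.

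**Figure D1:**
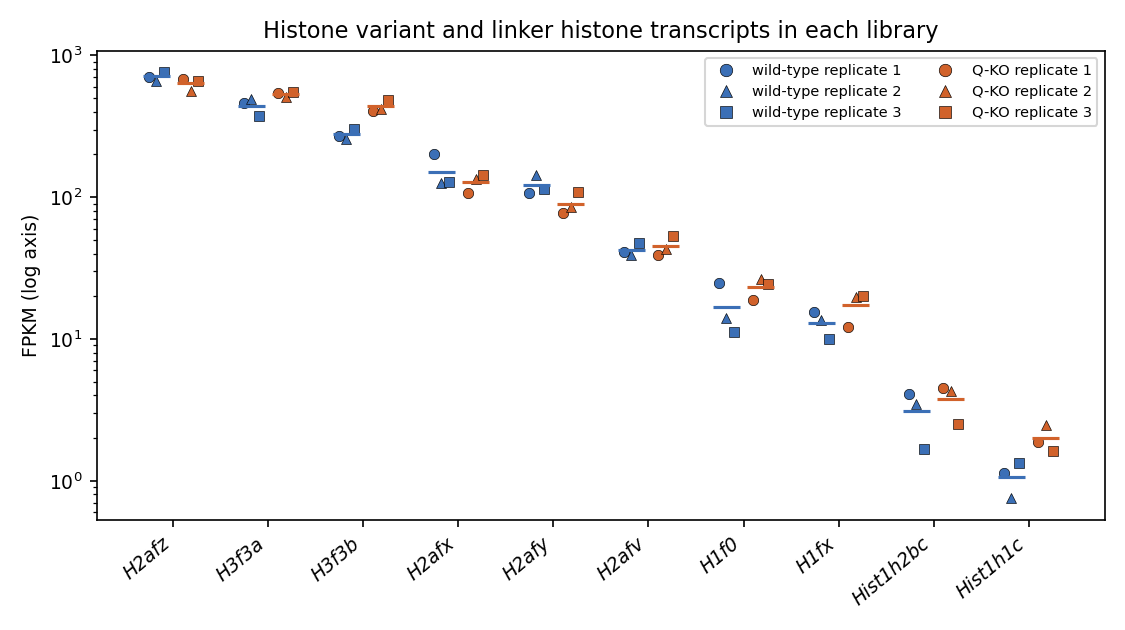
FPKM of each gene (log axis) in the 6 libraries, with wild-type in blue, Q-KO in orange, a symbol for each replicate number and a line at each group mean. The groups are apart for H3f3a, H3f3b and Hist1h1c and overlap for the other 7 genes.

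H3f3b rose in the libraries labelled Q-KO and was the only one of the 10 genes to pass the test. Values were compared as log2(FPKM + 1) with limma over the 11573 genes that averaged 1 FPKM or more, and p-values were adjusted by Benjamini-Hochberg and called at 0.05. All 10 members passed that filter. Of all genes tested 4.06% were called (3.04% higher and 1.02% lower), beside 1 of these 10. For 3 members the Q-KO and wild-type ranges were separate, all higher in the Q-KO libraries, where 27.7% of all genes had separate ranges (18.2% higher and 9.44% lower). Read against these shares, neither count sets the 10 genes apart. An unadjusted p under 0.05 was found for 3 of the 10 members and for 21.5% of all genes tested. The median log2 change was 0.26 over the 10 members and 0.07 over all genes tested. In bulk RNA, fewer cells that express a gene and less RNA per cell cannot be told apart.

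**Figure D2:**
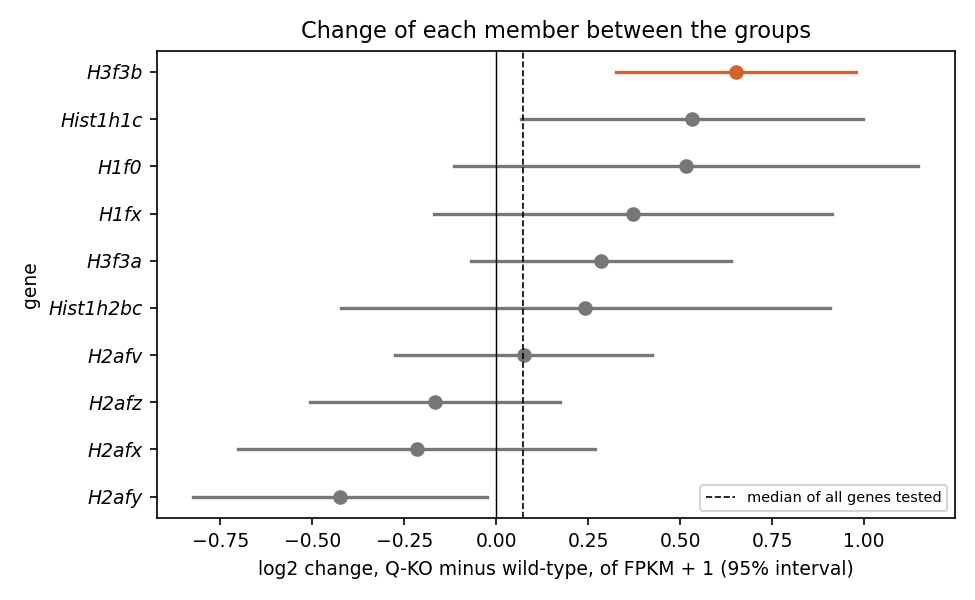
Log2 change of FPKM + 1 (Q-KO minus wild-type) with its 95% interval from limma for each gene, with the gene past the threshold in orange and the median of all genes tested as a dashed line. Only H3f3b passed, at 0.65, and the intervals of 7 genes include 0.

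H3f3a and H3f3b are separate genes that encode the same protein, the replacement histone H3.3. H3f3b, on chromosome 11, read 271, 257 and 303 FPKM in the wild type against 407, 416 and 487 FPKM in Q-KO. All Q-KO values lay above all wild-type values. The log2 change was 0.65 (SE 0.14, limma adjusted p = 0.0461), which is 1.57-fold with a 95% interval of 1.25 to 1.97. H3f3a, on chromosome 1, read 463, 494 and 371 FPKM in the wild type against 547, 512 and 549 FPKM in Q-KO. Its groups were apart too, by a narrow gap between wild-type replicate 2 and Q-KO replicate 2. Its log2 change of 0.29 (SE 0.15) did not pass (limma adjusted p = 0.328), and the interval runs from 0.95-fold to 1.56-fold. The change of H3f3a was 0.16 without wild-type replicate 3, 0.15 after median-of-ratios scaling and 0.53 with a term for Y-linked transcripts.

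The call of H3f3b was near the threshold. It was lost without Q-KO replicate 1, 2 or 3 (limma adjusted p = 0.102, 0.185 and 0.0854) and without wild-type replicate 1 or 2 (0.136 and 0.103), and held without wild-type replicate 3 (0.0489). The log2 change itself stayed between 0.52 and 0.72 under all alternatives run, 0.52 after median-of-ratios scaling (limma adjusted p = 0.0934). Wild-type replicate 3 had higher values for genes of chromosome 11: their median log2 difference from the mean of the other 2 wild-type libraries was 0.25, against -0.02 for all genes. H3f3b followed with 0.20 and H2afv, on the same chromosome, with 0.23. With the median of each chromosome removed per library, a setting chosen after the data were seen, the change of H3f3b was 0.63 (limma adjusted p = 0.039). With a term for Y-linked transcripts, so that in effect only wild-type replicate 3 serves as control, it was 0.52 (limma adjusted p = 0.177).

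Together the 2 genes gave 734, 752 and 674 FPKM of H3.3 transcripts in wild-type and 954, 928 and 1037 FPKM in Q-KO libraries. Every Q-KO library was above every wild-type library in this sum, which includes the called gene and was not tested. H3f3b made up 37.0%, 34.3% and 45.0% of it in wild-type and 42.7%, 44.8% and 47.0% in Q-KO libraries. Wild-type replicate 3 lay within the Q-KO range of this share. The log2 ratio of H3f3a to H3f3b was 0.67 ± 0.34 in wild-type and 0.30 ± 0.13 in Q-KO libraries (exact two-sided permutation test p = 0.3, and 0.875 after adjustment over the 5 ratios examined). With 3 against 3 libraries this test cannot go below 0.1.

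**Figure D3:**
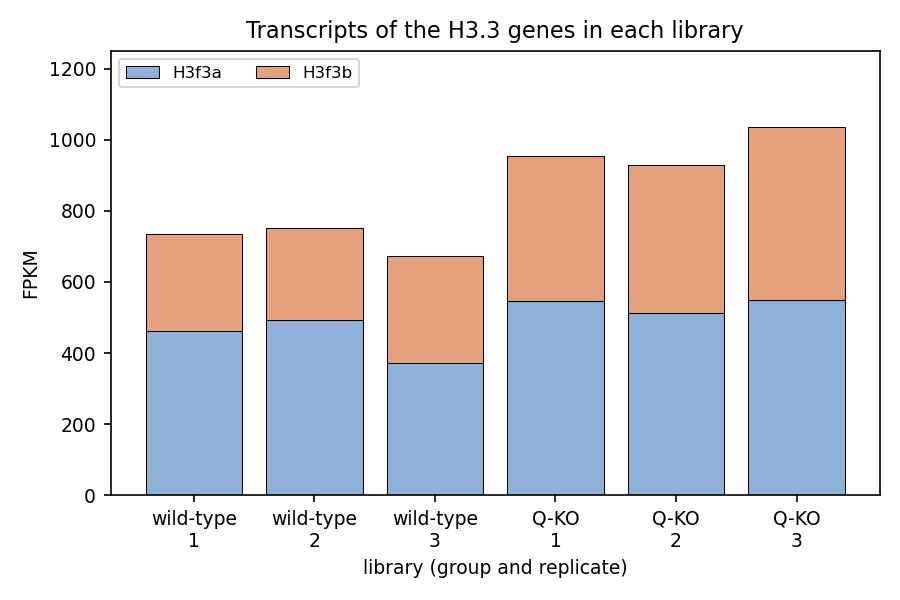
FPKM of H3f3a (blue) and H3f3b (orange) stacked for each library. The sum lies between 674 and 752 in the wild-type and between 928 and 1037 in the Q-KO libraries.

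H3f3b differs from H3f3a in how far its reads can be told from those of other genes. Of the 50-base words of the H3f3a transcript 30.3% occur in annotated transcripts of other genes, 41 in number, H3f3c and predicted genes among them. For H3f3b the share is 8.4%, in 3 other genes. Values of H3f3a are therefore uncertain where the counting split reads between copies.

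H2afz and H2afv encode the H2A.Z forms H2A.Z.1 and H2A.Z.2, which mark nucleosomes next to promoters. H2afz read 708, 659 and 763 FPKM in the wild type against 682, 563 and 656 FPKM in Q-KO. The groups overlapped, with the lowest value in Q-KO replicate 2. Its log2 change was -0.17 (SE 0.15, limma adjusted p = 0.556), and the interval runs from 0.70-fold to 1.13-fold. The change was -0.08 without Q-KO replicate 2 and -0.30 after median-of-ratios scaling. H2afv read 41.1, 39.2 and 47.1 FPKM in the wild type against 39.4, 42.8 and 53.0 FPKM in Q-KO. The ranges overlapped, with Q-KO replicate 3 above every wild-type library. Its log2 change was 0.08 (SE 0.15, limma adjusted p = 0.813, 0.83-fold to 1.34-fold). H2afz held 94.4 ± 0.167% of the summed H2A.Z transcripts in wild-type and 93.3 ± 1.06% in Q-KO libraries. The log2 ratio of H2afz to H2afv was 4.03 ± 0.04 and 3.79 ± 0.25 (exact permutation p = 0.4, adjusted 0.875). H2afz values are uncertain, since 69.6% of its 50-base words occur in transcripts of 6 other genes. H2afv shares none.

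H2afy encodes macroH2A1, a large H2A variant with an added macro domain that is enriched on the inactive X chromosome. It read 107, 142 and 114 FPKM in the wild type against 77.3, 84.8 and 108 FPKM in Q-KO. Q-KO replicate 3 lay just above wild-type replicate 1, so the ranges overlapped. The log2 change of -0.42 (SE 0.17) was the lowest of the 10 and did not pass (limma adjusted p = 0.206), with an interval of 0.57-fold to 0.98-fold. The log2 ratio of H2afy to H2afz was -2.55 ± 0.30 in wild-type and -2.81 ± 0.28 in Q-KO libraries (exact permutation p = 0.6, adjusted 0.875). FPKM per gene does not separate the splice forms of macroH2A1.

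H2afx encodes H2AX, the H2A variant phosphorylated around DNA breaks. It read 201, 126 and 127 FPKM in the wild type against 107, 134 and 143 FPKM in Q-KO. The high mean of the wild-type group came from replicate 1, and the other 2 lay inside the Q-KO range. The log2 change was -0.22 (SE 0.21, limma adjusted p = 0.596, 0.61-fold to 1.21-fold), and 0.004 without wild-type replicate 1.

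The 3 linker histone genes all had values above 0 for the log2 change, and 0 of them passed. H1f0 encodes H1.0, a replacement H1 that accumulates in cells that stop dividing and differentiate. It read 24.8, 14.1 and 11.2 FPKM in the wild type against 18.7, 26.6 and 24.6 FPKM in Q-KO, and wild-type replicate 1 lay inside the Q-KO range. Its log2 change was 0.52 (SE 0.27, limma adjusted p = 0.322), and the interval is wide, from 0.92-fold to 2.22-fold. The change was 0.82 without wild-type replicate 1, 0.28 without wild-type replicate 3 and 0.98 in the fit with a Y-linked term. H1fx, the gene of the variant H1.10, read 15.6, 13.6 and 9.93 FPKM in the wild type against 12.1, 19.9 and 20.1 FPKM in Q-KO. Q-KO replicate 1 lay within the wild-type range, and the log2 change was 0.37 (SE 0.24, limma adjusted p = 0.402, 0.89-fold to 1.88-fold). Leaving out wild-type replicate 3 gave 0.20, leaving out Q-KO replicate 1 gave 0.60, and the change was 0.71 in the fit with a Y-linked term. For both genes wild-type replicate 3 was the lowest library of the 6.

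Hist1h1c, in the large histone cluster on chromosome 13, encodes H1.2, a main linker histone of dividing cells. It read 1.13, 0.752 and 1.32 FPKM in the wild type against 1.88, 2.49 and 1.62 FPKM in Q-KO. The groups were apart, with wild-type replicate 3 and Q-KO replicate 3 closest. The log2 change was 0.53 (SE 0.20) and did not pass (limma adjusted p = 0.178, 1.05-fold to 1.99-fold). On this scale the added 1 FPKM is about as large as the value itself, so the change is understated. As the gene holds the stem-loop, its values are no measure of messenger RNA that lacks a tail. The log2 ratios of H1f0 and of H1fx to Hist1h1c differed by -0.02 and -0.16 between the groups (exact permutation p = 1.0 and 0.7, adjusted 1.0 and 0.875).

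Hist1h2bc, also in the cluster on chromosome 13, encodes an H2B. It read 4.12, 3.48 and 1.67 FPKM in the wild type against 4.49, 4.28 and 2.497 FPKM in Q-KO, with the third library lowest in each group. The log2 change was 0.24 (SE 0.29, limma adjusted p = 0.674, 0.75-fold to 1.88-fold), and -0.04 without wild-type replicate 3. Its values are uncertain, as 30.6% of its 50-base words occur in other genes, H2B copies such as Hist1h2bg among them. The remaining members share 5.7% to 14.0% of their words.

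The replication-dependent histone genes of the histone clusters were low in every library. Of 59 rows 54 had a mean under 1 FPKM and the highest mean was 1.91 FPKM. Their summed level was 31.9, 22.8 and 58.4 FPKM in wild-type and 24.5, 23.9 and 27.1 FPKM in Q-KO libraries, highest in wild-type replicate 3. Of 5 tested rows 0 passed limma's test (0 with an unadjusted p under 0.05, beside 21.5% of all genes tested), and their median log2 change was -0.39. Hist1h3b, which gives this median, and Hist1h2bk averaged 1.33 and 1.47 FPKM in the wild type and 0.754 and 0.807 FPKM in Q-KO. These genes passed the filter on low values through the wild-type group, so the median is no measure of a fall. Hist1h3c, the most abundant, was at 1.12, 1.21 and 4.44 FPKM in wild-type and at 1.57 ± 0.328 FPKM in Q-KO libraries (log2 change -0.20, limma adjusted p = 0.785). In the fit with a Y-linked term, which in effect sets Q-KO against that high library, it was at -1.09 (limma adjusted p = 0.0337). Whether the libraries were selected for poly(A) is not given in the sources used here, and these low levels are no measure of histone messenger RNA that lacks a tail.

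Among other histone variants 1 of 5 tested genes rose and 0 fell, beside 3.04% and 1.02% of all genes tested. Their median log2 change was 0.58, and that over all genes tested was 0.07. The gene that rose was H2bfm, on the X chromosome, which encodes an H2B variant. It read 0.274, 0.488 and 0.246 FPKM in the wild type against 2.37, 3.20 and 3.85 FPKM in Q-KO. Every wild-type library was under 1 FPKM and every Q-KO library above 2 FPKM, so the gene passed the filter on low values through the Q-KO group. Its log2 change was 1.62 (SE 0.20, limma adjusted p = 0.0101), and the call was lost only without Q-KO replicate 2 (limma adjusted p = 0.0786) among the alternatives that tested it. H2afj, H2afy2, Cenpa and Hist3h2a were the other 4 tested, with log2 changes of 0.58, 0.34, -0.50 and 0.61, and did not pass (limma adjusted p = 0.0926, 0.175, 0.149 and 0.242). Hist3h2a has the symbol of a histone cluster gene and was put in this list, so it was not counted among the replication-dependent rows. H2afj, an H2A variant, was at 17.1 ± 2.38 and 26.2 ± 3.88 FPKM, and Cenpa, the centromeric H3, at 95.6 ± 14.5 and 67.4 ± 11.4 FPKM. Of the 17 variants with a row, 12 were under the filter and 4 of these were listed at 0 in all libraries.

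None of 8 tested H3.3 chaperones passed limma's test (1 with an unadjusted p under 0.05, beside 21.5% of all genes tested), and their median log2 change was 0.00. Dek, the most abundant, was on average 140 ± 23.0 FPKM in the wild type and 139 ± 21.04 FPKM in Q-KO (limma adjusted p = 0.996). The gene with the lowest p in this list, named after its values were seen, was Asf1a, an H3-H4 chaperone that works with HIRA. It read 17.4, 19.95 and 15.5 FPKM in the wild type against 29.1, 25.4 and 26.2 FPKM in Q-KO, without overlap (log2 change 0.59, SE 0.14, limma adjusted p = 0.0611). Hira itself had a log2 change of 0.01, Daxx of 0.34 and Atrx of -0.35.

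Among the machinery of the other histones, 4 more lists held 0 calls. They were H2A.Z deposition and removal (22 tested, median log2 change -0.005, 3 with an unadjusted p under 0.05, beside 21.5% of all genes tested), H2A-H2B and linker histone chaperones (12, -0.12 and 3), H2AX signalling (15, 0.01 and 2) and histone messenger RNA transcription and end processing (17, 0.03 and 1). Their most abundant tested genes were Morf4l1 (220 ± 16.9 and 249.5 ± 17.06 FPKM), the nucleolar chaperone gene Npm1 (3800.4 ± 483 and 2752 ± 216 FPKM), Ppp4c (114 ± 16.04 and 119.7 ± 10.4 FPKM) and Slbp (70.3 ± 2.87 and 83.7 ± 8.49 FPKM), whose product binds the histone stem-loop. Their log2 changes were 0.18, -0.46, 0.07 and 0.24 (limma adjusted p = 0.465, 0.199, 0.818 and 0.313).

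**Figure D4:**
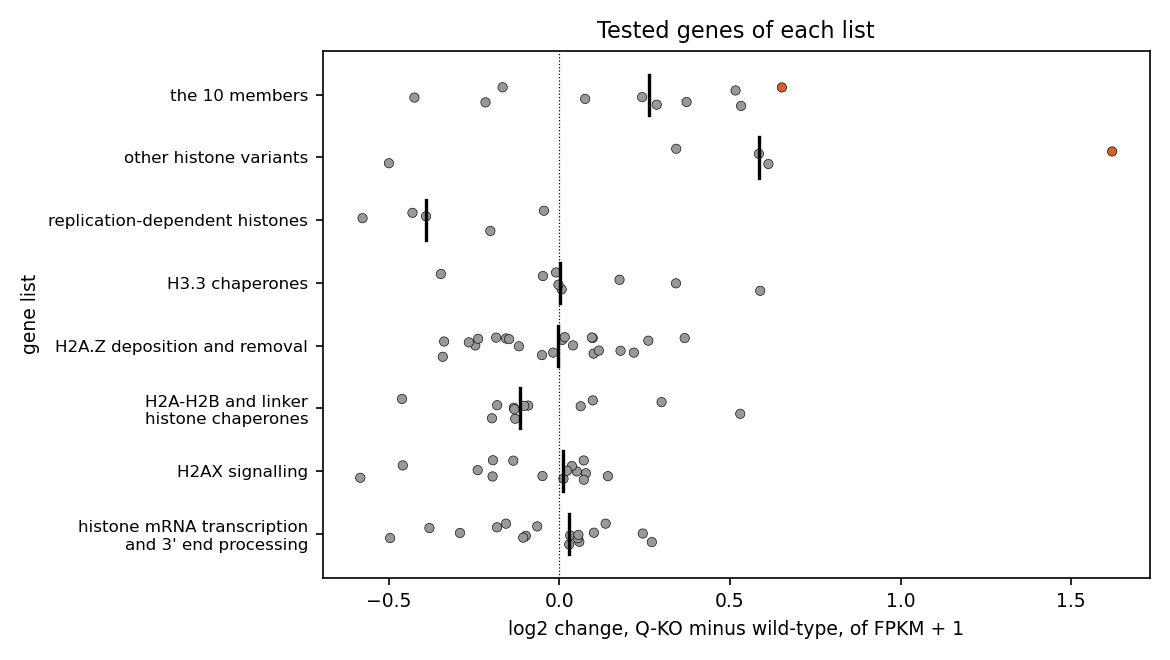
Log2 change of FPKM + 1 (Q-KO minus wild-type) of each tested gene, by list, with a bar at the median and genes past the threshold in orange (points are spread vertically within a list). H3f3b (0.65) and H2bfm (1.62) are the 2 called genes among the lists shown.

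The gene whose profile over the 6 libraries was nearest to that of H3f3b, the member with the largest log2 change of FPKM + 1, was Arih2, which encodes a ubiquitin ligase. The root-mean-square difference of their centred log2 values was 0.03, against a median of 0.39 over all tested genes. Arih2 was on average 42.9 ± 5.001 FPKM in the wild type and 67.4 ± 5.35 FPKM in Q-KO. The next were 1110008F13Rik and Cdc5l, a splicing factor gene (0.05 and 0.06). H3f3b was not the largest in every alternative. With 0.1 FPKM added in place of 1, Hist1h1c had a larger change (0.85 against 0.65). So had H1f0 without wild-type replicate 1 (0.82 against 0.64) and Hist1h1c without Q-KO replicate 3 (0.62 against 0.57). After median-of-ratios scaling H2afy, at -0.56, was larger in size than H3f3b, at 0.52. With a term for Y-linked transcripts H3f3b, at 0.52, was below H1f0 (0.98), Hist1h2bc (0.81), H1fx (0.71) and H3f3a (0.53). The 3 near genes lie on chromosomes 9, 2 and 17, and nearness over 6 libraries, chosen out of all tested genes, is a description only.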

How the data were processed

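RNA-seq of 6 libraries, 3 wild-type and 3 labelled Q-KO, was used as the authors deposited it, in 1 table of FPKM per gene symbol. The submitters' processing notes list STAR 2.5, Cufflinks, bcl2fastq 2.16, CASAVA and the build mm9, without role or order. Annotation, strand setting and fragment numbers are not given there, so no counting interval was computed. A gene-level FPKM depends on the gene model and on how reads shared by copies were split. 1 stray header row was dropped, and 0 sample columns were unmapped.

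Groups came from the sample titles. log2(FPKM + 1) was compared with limma 3.58.1 in R 4.3.3 (intensity trend, two-sided, Benjamini-Hochberg over the 11573 genes averaging at least 1 FPKM), and ratios with exact permutation tests. The scripts were tested on simulated data. The members, gene lists and alternatives were chosen with earlier results of these data known. The text names the 10 members, the 5 G1 cyclins and, per list, the called genes (up to 4) or else the most abundant tested gene. It also names the 3 profiles nearest to the member with the largest log2 change of FPKM + 1 (another member in some alternatives). Lists cover other variants, replication-dependent histones, chaperones of H3.3 and of H2A-H2B and linker histones, H2A.Z deposition, H2AX signalling, histone messenger RNA processing, and markers of ES cells, fibroblasts, differentiated lineages and the Y chromosome. 1 further list is not reported here. Chromosomes and transcript lengths came from GENCODE M21 by symbol, and no mm9 coordinates are given. Promoters of 8 members matched, by symbol or synonym (H2afx and Hist1h2bc did not). 50-base words were taken from 1 transcript per member, on both strands.

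Alternatives changed the filter (none, or an average of 5 FPKM), the pseudocount (0.1), the scaling (quantile, or median of ratios) and the fit (robust, without the intensity trend, with a term for Y-linked transcripts, or blocked by replicate number). Others left out each library in turn, removed a length trend and, added after the data were seen, removed chromosome medians.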

Additional observations from a re-analysis of the deposited data

How the results depend on the processing

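The count of called genes was 470 of those tested. It was 184 with no filter on low values, 266 at an average of at least 5 FPKM, 894 with a term for Y-linked transcripts, and 28 to 566 when 1 library was left out (28 without Q-KO replicate 2). Of the 10 members, 1 was called. The number was 0 at an average of at least 5 FPKM, after median-of-ratios scaling, with no filter, with no intensity trend, with a term for Y-linked transcripts and with the replicate block, and 0 to 1 when 1 library was left out. In these first 6 settings H3f3b had limma adjusted p of 0.0538, 0.0934, 0.0826, 0.0528, 0.177 and 0.0685. Median-of-ratios scaling moved the median log2 change of all genes by -0.12. It also moved the share of rises among calls from 74.9% to 55.7%, and quantile normalization moved it to 54.0%, removal of a length trend to 56.8%, removal of chromosome medians to 61.6% and no filter to 85.3%.

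Signs of the log2 change turned only for genes that were not called. H2afv was at -0.0351 after removal of a length trend, -0.0532 after median-of-ratios scaling, -0.0752 with a term for Y-linked transcripts, and -0.0452 to 0.165 when 1 library was left out. The range over such omissions was -0.331 to 0.00397 for H2afx, -0.0396 to 0.450 for Hist1h2bc, -0.44 to 0.24 for Hist1h3c, -0.146 to 0.0753 for Dek and -0.0363 to 0.166 for Ppp4c. With a term for Y-linked transcripts Dek was at 0.28, Eif2s3y, a Y-linked gene, at -0.9995, and Hist1h3c at -1.09, where it passed the threshold (limma adjusted p = 0.0337). Ppp4c was at -0.0271, -0.0424 and -0.0591 after removal of chromosome medians, of a length trend and with median-of-ratios scaling. The difference in the ratio of H1f0 to Hist1h1c ranged from -0.34 to 0.27 and that of H1fx to Hist1h1c from -0.42 to 0.0437 when 1 library was left out. The cause of these changes was not tested.

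Same-numbered libraries of the groups did not deviate together (Pearson's r across genes of -0.03, 0.01 and 0.02), so the replicate block, with 333 called genes, rests on shared numbers only. Depth is known only as ratios between libraries, and it limits Hist1h1c and Hist1h2bc most, at a few FPKM.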
